A study of Picea abies with 40 samples.

Results

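The genes described here had less RNA in the QC area of the Norway spruce root tip than in each of the other laser-captured root regions. The QC area is named as the labels give it. In root biology the abbreviation usually stands for the quiescent centre, which the labels do not spell out. Genes were chosen on the measured levels of both deposited tables, as CPM, the reads of a gene per M reads counted in its library. A gene was kept if its lowest mean over ground tissue and the 3 steles was at least 5 CPM and at least 3 times its QC area mean, if ground tissue exceeded the lowest stele mean divided by 2, and if no root zone stood 2-fold or more above every other zone. Of 70736 listed genes, 100 met these conditions, fewer than the limit of 150, so all of them were kept and none was lost to ranking. They are called the QC-low genes below, and their low level in the QC area is the choice itself and not a finding.

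Seedlings of Norway spruce (Picea abies, a conifer) were grown on plates to about 2 days after germination, and total RNA of their roots was sequenced. The labels name no genotype, strain or treatment for any library. Laser capture, which cuts chosen cells out of tissue sections, gave 5 groups of 4 libraries. These were the QC area, the ground tissue and the steles numbered 1, 2 and 3. The other 4 groups were zone 1 to zone 4, root segments collected from the tip, with 5 libraries each. Of the 4 segments 3 were 1 mm long and 1 was 2 mm, and they are taken here to be numbered from the tip. The sources place the steles where roots elongate and differentiate, do not give each stele its zone, and they do not say whether zone and stele of the same number lie at the same height.

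A root grows from its tip, where an organising centre of rarely dividing cells is surrounded by stem cells that supply the root tissues. Cells leave this region by dividing, elongating and maturing, so distance from the tip is also a sequence of cell age. Ground tissue forms the cortex and endodermis, and the stele is the central cylinder with xylem, phloem and the cells around them. In flowering plants such as Arabidopsis, from which most of this is known, the quiescent centre keeps its neighbours undifferentiated, and genes for conducting, storage or barrier functions come on as cells leave it. The gene IDs of these tables are not paired with names, so no role is given to any gene below, and no marker list could be used to check the labelled regions.

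Library totals lay between 4.94 and 11.99 M counts for captured regions and between 3.53 and 7.25 M for zones. The spread between replicates, as edgeR's biological coefficient of variation, was 48.2% for captured regions and 16.0% for zones. The sources do not say whether libraries came from separate seedlings or pools. The p-values below therefore measure a spread between libraries that may be technical, and they are too small if libraries of a group shared a seedling. All zone libraries were sequenced in lane 3. The 4 QC area libraries were in lane 8, as were 3 of ground tissue, replicates 3 and 4 of stele 1 and replicate 1 of stele 3. The other captured libraries, with all of stele 2, were in lane 7. RNA of the zones and of the captured regions was extracted in different ways, so levels are compared only within a table.

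The conditions removed genes at different steps. The level condition left 9104 genes, of which 158 were also at least 3-fold above the QC area in each other region. Ground tissue met its own condition in 115 of these, and 15 were barred because 1 zone stood out, which was zone 2 for 7 genes, zone 3 for 2, zone 4 for 6 and zone 1 for 0. At the limit of the ratio, MA_909864g0010 lay just inside with 1.99 CPM in the QC area and 5.99 CPM in the next lowest region, a ratio of 3.01, and MA_4402g0010 lay just outside at 2.998. At the limit of the level, MA_11889g0010 lay just inside with a lowest other mean of 5.00024 CPM, and MA_21971g0010 just outside with 4.88 CPM.

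In the captured regions the QC-low genes formed a low level in the QC area, a middle level in ground tissue and stele 1, and a high level in steles 2 and 3. Their median in each library was 1.75, 2.40, 2.57 and 2.62 CPM in the QC area, 23.99, 16.8, 18.3 and 15.7 CPM in ground tissue, and 21.4, 14.5, 7.97 and 19.0 CPM in stele 1. It was 72.7, 61.0, 46.2 and 50.05 CPM in stele 2 and 52.1, 56.6, 51.0 and 51.1 CPM in stele 3. The libraries of ground tissue and stele 1 overlapped in this median, as did those of stele 2 and stele 3, and all 4 QC area libraries lay below every other captured library. Since these are bulk samples, fewer cells of a type and less RNA per cell cannot be told apart, here and in all results below.

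**Figure D1:**
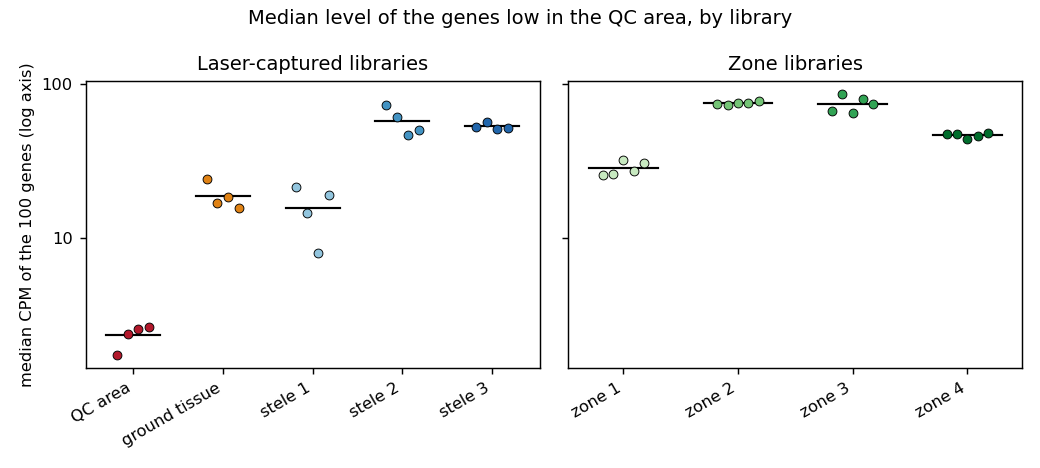
Each point is the median level, in CPM on a log axis, of the 100 QC-low genes in 1 library, with captured regions on the left and zones on the right, and bars mark the group mean. The QC area libraries sit between 1.75 and 2.62 CPM, and zone 1 is the lowest of the zones at 25.5 to 31.7 CPM.

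The steles differed among themselves. The choice used their lowest mean, also in the condition on ground tissue, so the values here are a description. The highest captured mean was in stele 2 for 51 genes, in stele 3 for 45, in ground tissue for 3 and in stele 1 for 1. The lowest of the 4 regions outside the QC area was ground tissue for 47 genes, stele 1 for 42 and stele 3 for 11. Ground tissue lay above stele 1 for 48 genes and below it for 52, so neither of these regions was the lower one throughout.

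The lowest other mean over the QC area mean, a ratio with the QC area underneath, ran from 3.01 to 124 with a median of 4.61. It was at least 5 for 42 genes and at least 10 for 15. Low did not mean absent. Of the 100 genes, 0 had no count over the 4 QC area libraries, 81 had a QC area mean of at least 1 CPM, and 17 had one of at least 10 CPM. A library without a count allows at most 0.349 CPM in the shallowest QC area library by a floor of 3 counts, which covers counting error only.

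The 4 QC area libraries did not carry these low levels evenly. The highest QC area value was in replicate 4 for 38 genes, in replicate 3 for 25, in replicate 2 for 24 and in replicate 1 for 13. QC area replicate 1 had no count for 24 genes, against 4, 5 and 11 in replicates 2, 3 and 4. For 29 genes, 1 library held over 50% of the summed QC area CPM. The coefficient of variation had a median over the genes of 60.3% in the QC area, and of 34.4% in ground tissue and 53.4%, 39.2% and 28.9% in steles 1, 2 and 3.

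Non-overlap of the libraries was counted as a description of the chosen contrast. Every QC area library lay below every library of the other captured groups for 72 of the 100 genes. The same held for 3.11% of 18026 genes with at least 5 CPM in a captured group, a share from which nothing is read, since this contrast chose the genes. Set against 1 region at a time, all QC area libraries were lowest for 93 genes with ground tissue (9.25% of 18026), 76 with stele 1 (11.1%), 100 with stele 2 (22.6%) and 98 with stele 3 (25.3%). Stele 1 replicate 3 had the lowest median of the stele 1 libraries, and without it, a comparison added after the values were seen, 91 genes lay below all remaining stele 1 libraries (16.5%). Lane moved with the regions, since no stele 2 library shared a lane with the QC area. Within lane 8, whose libraries also served the choice, 99 of the 100 genes had each available other mean above the QC area mean, 81 at least 3-fold, with a median ratio of 4.14. Of the 18026 genes with a mean of at least 5 CPM in a captured group, 19.1% and 3.18% met these conditions. The choice largely fixes these counts.

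The first-ranked gene, MA_483593g0010, had 0, 2.17, 0 and 0 CPM in the QC area, against 474, 236, 93.6 and 170.4 CPM in ground tissue. Its steles held 37.9, 23.6, 98.0 and 110.2 CPM in stele 1, 716, 659, 227 and 335 CPM in stele 2, and 271, 194, 250.2 and 102 CPM in stele 3. Its 19 QC area counts all came from replicate 2, and stele 1 was the lowest region after the QC area, at 67.4 ± 43.1 CPM (SD, n = 4). In the zones it was abundant throughout, at 688, 453, 601, 512 and 405 CPM in zone 1 and 2501, 1794, 2875, 2319 and 1885 CPM in zone 2. Zone 3 held 2326, 2701, 2290.1, 2342 and 2076 CPM and zone 4 held 1100.5, 1339, 1592, 1392 and 1478 CPM. All zone 1 libraries were below all libraries of the other zones, and those of zones 2 and 3 overlapped.

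MA_9438531g0010, ranked second, had 0, 0, 0 and 1.64 CPM in the QC area and 118, 84.6, 68.3 and 38.9 CPM in ground tissue. It had 3.85, 10.5, 33.5 and 19.3 CPM in stele 1, 73.7, 45.9, 104 and 95.1 CPM in stele 2, and 31.7, 24.5, 39.5 and 4.22 CPM in stele 3. Ground tissue and stele 2 overlapped at the highest levels and steles 1 and 3 at lower ones, where the highest stele 3 library reached the lowest of ground tissue. Zone 1 held 29.5, 12.4, 46.3, 26.8 and 25.03 CPM, zone 2 held 538, 336, 724, 512 and 521 CPM, zone 3 held 1649, 1162, 1788, 1721 and 1597 CPM, and zone 4 held 1300.1, 1507, 1447, 896 and 1390.1 CPM. The order of the zones was thus steep, with no overlap of zones 1, 2 and 3.

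MA_106343g0010 had 0, 0, 0.428 and 0 CPM in the QC area, 4 counts in all, and 36.0, 16.9, 13.7 and 14.1 CPM in ground tissue. It had 17.0, 6.33, 0.577 and 21.5 CPM in stele 1, 156, 201, 76.2 and 64.1 CPM in stele 2, and 164, 119, 116 and 99.6 CPM in stele 3. Stele 1 replicate 3 stood close to the QC area, and steles 2 and 3 lay above all other captured libraries. In the zones its means were 49.6 ± 4.54 CPM in zone 1, 418 ± 59.2 CPM in zone 2, 610.3 ± 83.0 CPM in zone 3 and 253 ± 9.92 CPM in zone 4 (SD, n = 5 each).

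MA_130615g0020 had a count in every QC area library, at 0.466, 0.570, 0.642 and 1.42 CPM, against 30.5, 8.76, 15.4 and 15.3 CPM in ground tissue. Stele 1 held 49.2, 17.4, 4.73 and 29.0 CPM, stele 2 held 169.6, 190.4, 116 and 133 CPM, and stele 3 held 118, 159, 125 and 131 CPM. Its zones took another shape from those of the 3 genes ranked above it, with zone 4 below zone 1. Zone 1 held 55.7, 62.2, 60.7, 64.0 and 65.8 CPM, zone 2 held 149.1, 148, 181, 159 and 157 CPM, zone 3 held 196, 218, 154, 197 and 229 CPM, and zone 4 held 40.8, 49.4, 30.9, 27.8 and 44.1 CPM. No zone 4 library reached the lowest zone 1 library.

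**Figure D2:**
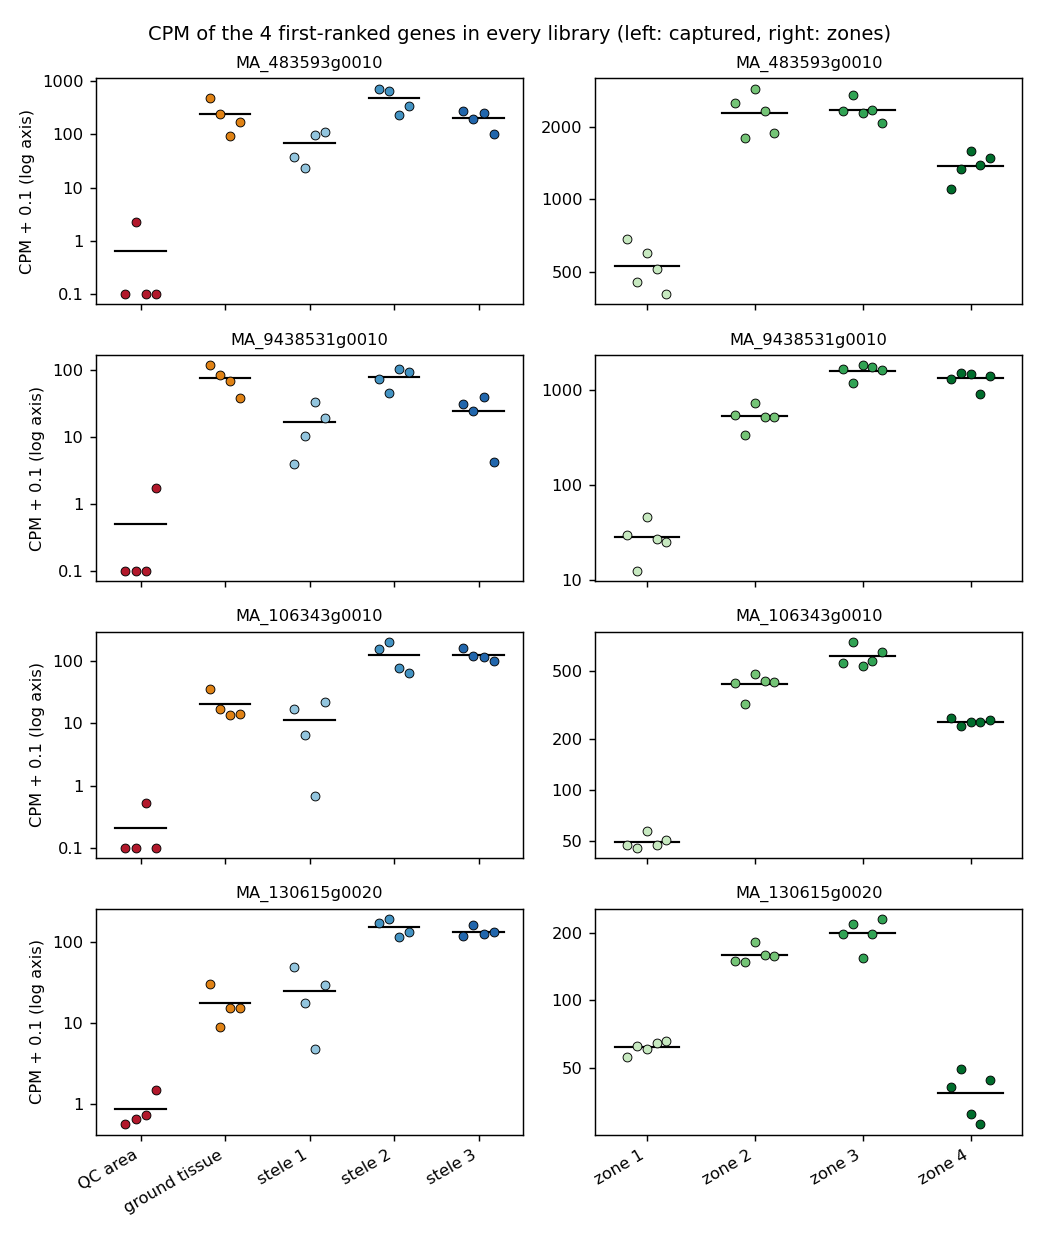
Each point is 1 library of the 4 first-ranked genes, as CPM + 0.1 on log axes that differ between panels, with captured regions on the left and zones on the right, and bars mark the group mean. MA_483593g0010, MA_9438531g0010 and MA_106343g0010 have 3 QC area libraries each at 0, drawn at the offset of 0.1, and levels are to be compared within a table only.

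The choice used the zone means only to bar genes with a single zone 2-fold or more above every other. It did not ask for any zone to be low. This bar took out 7 genes for zone 2, 2 for zone 3, 6 for zone 4 and 0 for zone 1. Over 16173 genes, zone and stele ratios also went together (Spearman's rho 0.77 to 0.83, given below). The zone counts below are therefore not independent of the choice. Their distance from all genes is a description, and p-values of single genes carry the same limit. The other zones were compared with zone 1, taken as the segment at the tip. The QC-low genes were mostly lowest in zone 1 and higher in the zones behind it. Zone 1 had the lowest zone mean for 71 genes, zone 4 for 28 and zone 2 for 1. The median of their zone means was 28.1 CPM in zone 1, 76.3 CPM in zone 2, 75.3 CPM in zone 3 and 47.7 CPM in zone 4. Every zone 1 library lay below every library of the other zones for 54 genes, against 14.3% of 22669 genes with at least 5 CPM in a zone.

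Tests were run over the whole zone table with edgeR's quasi-likelihood test and Benjamini-Hochberg adjustment at 0.05. The filter on low counts kept 27767 genes, with 99 of the 100 QC-low genes among them. In zone 2 against zone 1, 90 of the QC-low genes were higher and 0 were lower, where 28.1% of all tested genes were higher and 27.6% lower, 55.7% in either direction. At an unadjusted p under 0.05, 91 were higher and 0 lower, a setting at which all genes were not counted. DESeq2 also called 0 lower, where it called 55.8% of all tested genes in either direction. The median log2 fold change was 1.40 for the QC-low genes and 0.016 for all tested genes. Without zone 1 replicate 1 the count of lower genes was 1.

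Zone 3 against zone 1 gave 86 higher genes and 5 lower, against 38.9% and 35.2% of all tested genes (74.1% in either direction), with a median log2 fold change of 1.61 for the QC-low genes and 0.077 for all. Zone 4 against zone 1 gave 65 higher genes and 22 lower, against 40.6% and 37.5% of all (78.2% in either direction), with medians of 0.95 and 0.052. The 3 comparisons share the zone 1 libraries, so their calls are not independent of each other. In all 3 of them 64 genes were higher than in zone 1, as were 20.05% of the 27767 genes tested. A further 15 were higher in zone 2 and lower in zone 4 (2.61% of all), 10 were higher in zone 2 with no call in zone 4 (4.58%), and 2 were called in no comparison with zone 1 (10.2%).

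**Figure D3:**
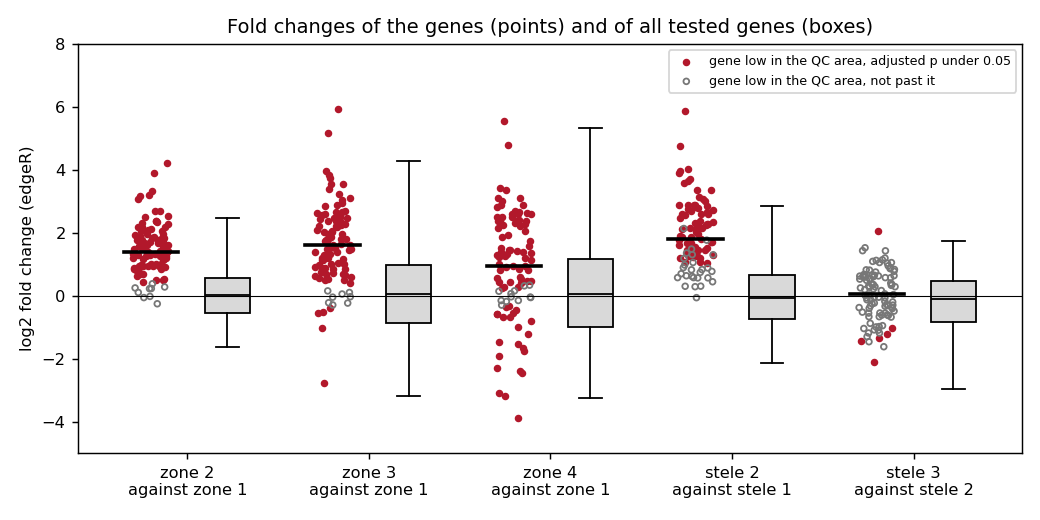
Each point is the log2 fold change of 1 QC-low gene in 1 of the 5 tested comparisons, filled where the adjusted p was under 0.05, with a bar at their median. Grey boxes give the median and quartiles of all tested genes and whiskers their percentiles 5 and 95. The genes' medians are 1.40, 1.61 and 0.95 in zones 2, 3 and 4 against zone 1, 1.80 in stele 2 against stele 1 and 0.054 in stele 3 against stele 2.

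The largest rises in each of the 3 zone comparisons, under the rule for named genes, were those of MA_9438531g0010 and MA_7645347g0010. MA_9438531g0010, whose libraries are given above, changed by a log2 fold change of 4.24 ± 0.26 (SE) in zone 2, 5.93 ± 0.28 in zone 3 and 5.56 ± 0.28 in zone 4, each against zone 1. The adjusted p-values of edgeR's test were 6.51e-12, 7.75e-15 and 1.19e-14. MA_7645347g0010 held 5.44, 6.84, 8.60, 5.45 and 6.83 CPM in zone 1, 128, 52.5, 142, 85.7 and 84.5 CPM in zone 2, 285, 221, 233, 188 and 186 CPM in zone 3, and 171, 208, 156, 223 and 168 CPM in zone 4. Zone 1 was far below the other zones in all 5 libraries. Its log2 fold changes against zone 1 were 3.90 ± 0.23, 5.17 ± 0.24 and 4.80 ± 0.24, with adjusted p-values of 3.97e-12, 5.07e-15 and 1.01e-14 in edgeR's test.

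The other 3 first-ranked genes also rose in zone 2 against zone 1. MA_106343g0010 rose by a log2 fold change of 3.09 ± 0.11 (SE, adjusted p = 1.94e-15 in edgeR's test), MA_483593g0010 by 2.11 ± 0.14 (adjusted p = 2.73e-11) and MA_130615g0020 by 1.38 ± 0.13 (adjusted p = 5.45e-09). In zone 4 against zone 1 the first and the second of these were still higher, with log2 fold changes of 2.36 ± 0.11 and 1.40 ± 0.14. MA_130615g0020 was lower there, with a log2 fold change of -0.66 ± 0.13 (adjusted p = 9.59e-05 in edgeR's test).

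Of the 22 genes that fell in zone 4 against zone 1, 18 had their highest mean in zone 2, 2 in zone 1 and 2 in zone 3, with a median of their means of 58.1 CPM in zone 1, 138 CPM in zone 2, 85.3 CPM in zone 3 and 33.6 CPM in zone 4. For the 65 genes that rose it was 24.2, 69.1, 72.6 and 62.0 CPM in zones 1 to 4. The largest falls under the rule for named genes were in MA_10434187g0020 and MA_18616g0010. MA_10434187g0020 held 438, 353.9, 418, 397 and 467 CPM in zone 1, 747, 827, 734, 789 and 883 CPM in zone 2, 218, 414, 139, 249 and 292 CPM in zone 3, and 86.1, 62.5, 75.5, 82.8 and 66.9 CPM in zone 4. It was highest in zone 2 and lowest in zone 4 without overlap, with a log2 fold change of -2.46 ± 0.18 (SE) in zone 4 against zone 1 (adjusted p = 1.31e-11, edgeR's test). MA_18616g0010 held 125, 110.4, 128, 118 and 124 CPM in zone 1, 191, 192, 195, 189 and 199.9 CPM in zone 2, 66.5, 132, 65.9, 82.8 and 82.9 CPM in zone 3, and 29.99, 27.6, 19.6, 27.0 and 20.7 CPM in zone 4. Its log2 fold change in zone 4 against zone 1 was -2.27 ± 0.15 (adjusted p = 1.32e-12, edgeR's test).

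In the captured regions both of these genes had their highest mean in stele 2. MA_10434187g0020 averaged 26.9 ± 8.48 CPM in the QC area, 147 ± 56.9 CPM in ground tissue, 125 ± 29.0 CPM in stele 1, 306 ± 201 CPM in stele 2 and 141 ± 49.4 CPM in stele 3 (SD, n = 4 each). MA_18616g0010 averaged 1.68 ± 0.940 CPM in the QC area, 14.1 ± 6.56 CPM in ground tissue, 22.6 ± 3.80 CPM in stele 1, 34.8 ± 19.9 CPM in stele 2 and 28.5 ± 8.87 CPM in stele 3. QC area libraries of both genes lay below all other captured libraries.

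The zone shapes divided the QC-low genes into a few orders. The means climbed to zone 3 and were lower in zone 4 for 35 genes, peaked in zone 2 and fell after it for 35, and rose at each step for 18. A rise, a fall and a second rise was seen for 9 genes, and each of the 3 remaining orders found for 1. The highest zone was zone 2 for 37 genes, zone 3 for 35, zone 4 for 25 and zone 1 for 3. As the choice barred a zone that stood 2-fold above all others, sharp peaks in 1 zone could not occur among them.

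Genes higher and genes lower in zone 4 than in zone 1 also differed in where they stood in the captured table. For the 65 higher genes the median of the means was 1.73 CPM in the QC area, 14.8 CPM in ground tissue, 12.8 CPM in stele 1, 46.9 CPM in stele 2 and 57.5 CPM in stele 3. For the 22 lower genes it was 3.95 CPM in the QC area, 27.2 CPM in ground tissue, 34.0 CPM in stele 1, 61.0 CPM in stele 2 and 36.5 CPM in stele 3. Stele 2 was higher than stele 1, in the test described below, for 52 of the 65 and 12 of the 22. Among all genes tested in both tables this held for 29.6% of those higher and 2.44% of those lower in zone 4 than in zone 1. Both groups of genes were defined by a zone test, and the difference between them was not tested. Of the 71 genes lowest in zone 1, the highest captured mean was in stele 3 for 40, in stele 2 for 29 and in ground tissue for 2. Of the 28 genes lowest in zone 4, it was in stele 2 for 22, in stele 3 for 4, and in ground tissue and stele 1 for 1 each.

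**Figure D4:**
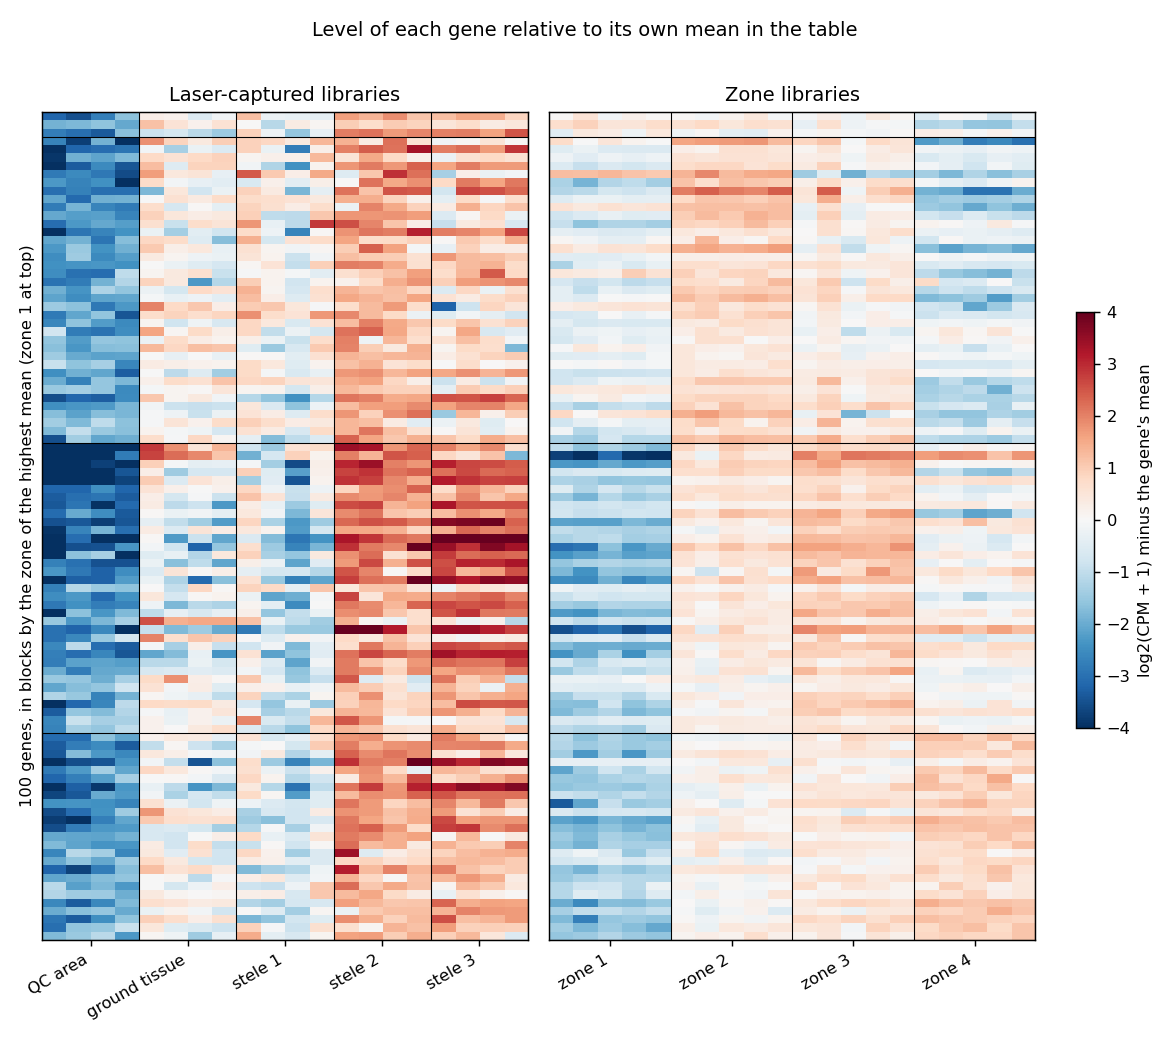
Rows are the 100 QC-low genes in blocks by the zone of their highest mean, zone 1 at the top, and columns are libraries. Colour is log2(CPM + 1) minus the gene's mean over the libraries of that table, from -4 to 4. The 4 QC area columns are blue by choice, and zone 1 columns are blue for most rows of the blocks that peak in zone 3 (35 genes) and zone 4 (25 genes).

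Across genes, log2 ratios of mean CPM + 1 between zones were set beside those between steles, as a description over genes that share libraries. For zone 3 over zone 1 and stele 3 over stele 1, Spearman's rho was 0.63 over the 100 QC-low genes and 0.83 over 16173 genes with at least 5 CPM in a group of each table. For zone 2 over zone 1 and stele 2 over stele 1 it was 0.47 and 0.81, and for zone 4 over zone 1 and stele 3 over stele 1 it was 0.52 and 0.77. All 3 values were lower for the QC-low genes. Of these, 2 were under 5 CPM in every zone and so missed the limit set for the larger set of genes. Whether this difference or the choice of genes has a part in the lower values was not tested.

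Steles were compared in order. The choice used their lowest mean, and ground tissue had to exceed that mean divided by 2, which limits how high the lowest stele can stand. The counts below are therefore not independent of the choice, although no condition compared 1 stele with another. The captured filter kept 27239 genes with all 100 QC-low genes among them. In stele 2 against stele 1, 73 of the QC-low genes rose and 0 fell in edgeR's quasi-likelihood test, where 12.4% of all tested genes rose and 8.97% fell, 21.4% in either direction. At an unadjusted p under 0.05 these counts were 82 and 0, a setting at which all genes were not counted. DESeq2 called 76 and 0, where it called 27.9% of all tested genes in either direction. The median log2 fold change was 1.80 for the QC-low genes and -0.051 for all tested genes. Since stele means served the choice, the distance between the QC-low genes and all tested genes is a description. This holds for the other stele counts below too, and p-values of single QC-low genes between steles carry the same limit. With library totals in place of TMM scaling, all-gene medians shifted to -0.22 and that of the QC-low genes to 1.65. The higher share of all calls then was 46.3% in place of 58.0%.

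Stele 2 lay in lane 7 alone, while stele 1 had replicates 1 and 2 in lane 7 and replicates 3 and 4 in lane 8. Within lane 7, with 4 stele 2 libraries against 2 of stele 1, 36 of the QC-low genes rose and 0 fell, where 2.18% of all tested genes were called in either direction, and their median log2 fold change was 1.61. With lane as a term in the fit 59 rose and 0 fell, where 15.3% of all tested genes were called in either direction. Without stele 1 replicate 3, 55 QC-low genes rose, and the genes called in the whole table were 3727 in place of 5822. Of the 90 genes higher in zone 2 than zone 1, 66 (also 66 of the 73) rose in stele 2 against stele 1. This share is like that of all QC-low genes, 73 of 100, whatever their call in zone 2. Among all genes higher in zone 2 and tested in both tables it was 37.3%.

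MA_7645347g0010 and MA_8606496g0010 rose most in stele 2 against stele 1 under the rule for named genes. MA_7645347g0010 held 1716, 644, 379.8 and 89.6 CPM in stele 2, against 4.86, 19.9, 14.0 and 13.9 CPM in stele 1. Its QC area libraries held 4.31, 3.54, 5.99 and 0.765 CPM, and the lowest stele 1 library lay within that range. The log2 fold change was 5.86 ± 0.72 (SE, adjusted p = 4.7e-05 in edgeR's test), and 4.97 without stele 2 replicate 1.

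MA_8606496g0010 held 187, 139, 91.95 and 83.7 CPM in stele 2, against 12.0, 4.85, 1.62 and 2.70 CPM in stele 1, and the 2 regions did not overlap. Its log2 fold change was 4.76 ± 0.72 (SE, adjusted p = 0.000243 in edgeR's test), 5.50 without stele 1 replicate 1 and 4.06 within lane 7. In the QC area it held 0, 1.37, 0 and 0.219 CPM. It was also the single QC-low gene whose rise in stele 3 against stele 2 passed the threshold in edgeR's test. The mean alone was higher in stele 3 than in stele 2 for 45 genes.

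The other first-ranked genes rose in stele 2 against stele 1 too, and the limit given above for p-values between steles holds for them. MA_106343g0010 had a log2 fold change of 3.59 ± 0.68 (SE, adjusted p = 0.00123 in edgeR's test) and MA_130615g0020 one of 2.76 ± 0.50 (adjusted p = 0.000829). MA_483593g0010 had 3.02 ± 0.71 (adjusted p = 0.00516 in edgeR's test), and 4.10 within lane 7. MA_9438531g0010 had 2.46 ± 0.73 (adjusted p = 0.0214 in edgeR's test), which did not pass the threshold without stele 1 replicate 2 (2.31, adjusted p = 0.0649) or within lane 7 (3.56, adjusted p = 0.0627).

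Few QC-low genes passed the test between stele 3 and stele 2. In stele 3 against stele 2, 1 rose and 5 fell in edgeR's test, where 3.85% of all tested genes rose and 9.16% fell (13% in either direction), and 94 did not pass the threshold. At an unadjusted p under 0.05, 11 rose and 11 fell, and all genes were not counted at this setting. The median log2 fold change was 0.054 for the QC-low genes and -0.11 for all tested genes, and with library totals -0.17 and -0.34, so that the sign of the first depended on the scaling. The higher share of all calls was 29.6% with TMM scaling, 13.8% with library totals and 39.8% in DESeq2. A p that misses the threshold does not show that these steles had equal levels.

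The 6 calls in this comparison were small in number and moved with the libraries. MA_8606496g0010 held 503, 375, 499.7 and 377 CPM in stele 3, against the stele 2 values given above, without overlap. Its log2 fold change was 2.06 ± 0.62 (SE, adjusted p = 0.0334 in edgeR's test) and did not pass the threshold without stele 2 replicate 2 (adjusted p = 0.0612), 3 (0.0834) or 4 (0.0578) or without stele 3 replicate 1 (0.0658) or 3 (0.0683).

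MA_20447g0010 held 46.0, 72.5, 119 and 56.8 CPM in stele 3, against 237, 236, 239.8 and 219 CPM in stele 2. Stele 2 was even and stele 3 lower in all libraries, with a log2 fold change of -1.43 ± 0.41 (SE, adjusted p = 0.0268 in edgeR's test). The adjusted p was 0.0717, 0.0547 and 0.0647 without stele 3 replicates 1, 2 and 4, and 0.159 within lane 7. MA_31668g0010 held 197, 445, 178 and 239 CPM in stele 3, against 767, 673, 483 and 559.5 CPM in stele 2, with a log2 fold change of -1.02 ± 0.30 (SE, adjusted p = 0.0292 in edgeR's test). Its adjusted p rose above the threshold without stele 2 replicate 1 (0.0526) or stele 3 replicate 1 (0.0673), 3 (0.0723) or 4 (0.0541), and it was 0.188 within lane 7.

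These falls did not recur as 1 pattern in the zones. MA_20447g0010 averaged 82.9 ± 10.3 CPM in zone 1, 271 ± 30.3 CPM in zone 2, 141 ± 57.1 CPM in zone 3 and 66.7 ± 9.71 CPM in zone 4 (SD, n = 5 each). MA_31668g0010 averaged 82.6 ± 10.7 CPM in zone 1, 343 ± 28.7 CPM in zone 2, 255 ± 26.9 CPM in zone 3 and 463 ± 45.6 CPM in zone 4. MA_20447g0010 was highest in zone 2 and MA_31668g0010 in zone 4, and these zones did not overlap with zone 1.

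In steles 2 and 3 a few of the QC-low genes held much of their summed level. MA_10427724g0050, MA_9835458g0010 and MA_10427724g0030, the highest over the captured libraries, together held 17.97 to 37.3% of it in QC area libraries, 5.75 to 29.1% in ground tissue, 12.1 to 38.8% in stele 1, 39.9 to 77.1% in stele 2 and 59.9 to 72.2% in stele 3. Gene lengths were not used here, so these shares are of reads and not of transcripts. The summed level of all 100 genes ran between 597 and 1073 CPM in the QC area, between 3401 and 6131 CPM in ground tissue, from 2413 to 8042 CPM in stele 1, from 17323 to 41777 CPM in stele 2 and from 27689 to 35149 CPM in stele 3. Without those 3 genes it ran between 490 and 673 CPM in the QC area, between 3077 and 4350 CPM in ground tissue, from 2105 to 4919 CPM in stele 1, 9291 to 13605 CPM in stele 2 and 9758 to 11117 CPM in stele 3.

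MA_10427724g0030 and MA_10427724g0050 carry the same scaffold number, the only pair among the QC-low genes to do so. In the captured table they moved together. MA_10427724g0050 held 63.7, 95.02, 102 and 225 CPM in the QC area, 1055, 587, 101 and 363 CPM in ground tissue, 1819, 416, 178 and 317 CPM in stele 1, 8543, 4761, 4582 and 18527 CPM in stele 2, and 12433, 9204, 14638 and 13637 CPM in stele 3. MA_10427724g0030 held 13.7, 19.8, 20.4 and 46.7 CPM in the QC area, 219, 138, 25.2 and 81.6 CPM in ground tissue, 384, 86.5, 37.4 and 66.4 CPM in stele 1, 1812, 1008, 904 and 3746 CPM in stele 2, and 2636, 1833, 3132 and 2416 CPM in stele 3. The count of the first over that of the other stayed between 4.03 and 5.64 in all 20 captured libraries. Both were high in the same libraries, replicate 1 of stele 1 and replicate 4 of stele 2, and QC area replicate 4 lay above ground tissue replicate 3 and stele 1 replicate 3 for both.

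In the zone table this pairing was absent. MA_10427724g0030 held 141, 155, 379.9, 232 and 289.6 CPM in zone 1, 2539.7, 2020.1, 2669.8, 2078 and 2658 CPM in zone 2, 3555, 3557, 3204, 2954 and 4081 CPM in zone 3, and 922, 1323, 1007, 809 and 1194 CPM in zone 4. It rose in zone 2 against zone 1 with a log2 fold change of 3.33 ± 0.22 (SE, adjusted p = 2.58e-11 in edgeR's test). MA_10427724g0050 had 0 counts in the 5 zone 1 libraries, 9 in zone 2, 9 in zone 3 and 13 in zone 4, and it was the QC-low gene that the filter left out of the zone tests. The count ratio of the pair was at most 0.000707 in any zone library. What sets the 2 tables apart for this gene was not tested, and whether both genes share reads cannot be told from counts.

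**Figure D5:**
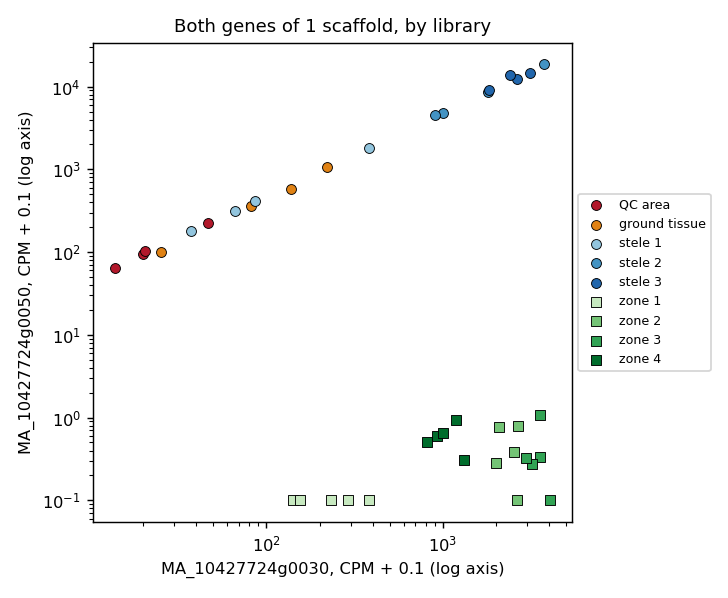
Each point is 1 library, with MA_10427724g0030 across and MA_10427724g0050 up, both as CPM + 0.1 on log axes, circles for captured and squares for zone libraries. The 20 captured libraries lie along 1 line with a count ratio of 4.03 to 5.64, and the 20 zone libraries lie at or below 0.987 CPM of MA_10427724g0050.

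MA_9835458g0010, on another scaffold, shared their captured pattern. It held 29.8, 61.5, 63.9 and 129 CPM in the QC area, 506, 257, 68.9 and 191 CPM in ground tissue, 919, 212, 92.2 and 140.0 CPM in stele 1, 4096, 2758, 2546 and 9949.8 CPM in stele 2, and 6824, 5535, 7621 and 7031 CPM in stele 3. The count of MA_10427724g0050 over its own ranged from 1.47 to 2.28 in the captured libraries. In the zones MA_9835458g0010 was highest in zone 3, with means of 278 ± 56.5 CPM in zone 1, 2486 ± 416 CPM in zone 2, 3669.8 ± 482 CPM in zone 3 and 1652 ± 293 CPM in zone 4 (SD, n = 5 each). Its log2 fold change in zone 2 against zone 1 was 3.17 ± 0.16 (SE, adjusted p = 2.77e-13 in edgeR's test).

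These 3 genes rose in stele 2 against stele 1 with values that single libraries moved. MA_9835458g0010 had a log2 fold change of 4.05 ± 0.77 (SE, adjusted p = 0.00121 in edgeR's test), 5.24 without stele 1 replicate 1 and 3.31 without stele 2 replicate 4. MA_10427724g0050 had 3.95 ± 0.79 (adjusted p = 0.00174 in edgeR's test), 5.11 and 3.23 without the same libraries. MA_10427724g0030 had 3.92 ± 0.77 (adjusted p = 0.00158 in edgeR's test), 5.09 and 3.22. Within lane 7 none of the 3 passed the threshold, at 3.33 (adjusted p = 0.0519), 3.26 (0.0613) and 3.22 (0.0643) in edgeR's test.

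One other QC-low gene was under 5 CPM in every zone. MA_10069449g0010 averaged 0.804 CPM in the QC area, 5.32 CPM in ground tissue, 5.08 CPM in stele 1, 20.2 CPM in stele 2 and 13.6 CPM in stele 3, and 0.751, 1.78, 2.60 and 2.88 CPM in zones 1 to 4. Its stele 2 mean rested on replicate 1, as the 4 libraries held 62.4, 3.25, 6.48 and 8.53 CPM. Those of stele 3 held 10.2, 13.3, 14.9 and 16.2 CPM. MA_10069449g0010 is named here because it is the only other such gene, after its values were seen. Of the 100 genes, 95 reached 10 CPM and 45 reached 100 CPM in a zone.

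Apart from MA_10427724g0030 and MA_10427724g0050, no QC-low genes shared a scaffold number with each other. A scaffold with at least 2 listed genes carried 17% of the QC-low genes, 17.7% of genes with at least 5 CPM in a captured group and 25.1% of all listed genes. The scaffolds of the QC-low genes listed 22 other genes, 8 of them with at least 5 CPM in a captured group. Of these 8, 3 were at least 3-fold lower in the QC area than in each other captured region, as were 5.27% of all genes at that level. These 3, MA_130615g0010, MA_74264g0010 and MA_10427724g0020, averaged 0.029, 0.056 and 0.056 CPM in the QC area. Their lowest other means were 1.58, 1.25 and 0.534 CPM, so the ratios rest on few reads.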

How the data were processed

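The authors deposited unnormalised read counts for each gene, in 1 table of 20 captured and 1 of 20 zone libraries. Trimmomatic, STAR and HTSeq were used, per the submitters' processing notes. Versions, genome build, annotation and strandedness are not given in the sources at hand, so overlapping or near-identical genes may share reads. Per the labels' protocols, zone RNA came from a chloroform extraction with RNeasy clean-up, and captured RNA from the RNAqueous-Micro kit. The stele columns carry Z, a number and a replicate letter, and were assigned by elimination from the columns named for the QC area and ground tissue. Group membership comes from the sample titles.

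CPM, the count per M counts of the library, was computed from the deposited counts and describes every level. Both tables were fitted separately in edgeR 4.0.16 (R 4.3.3). The default filterByExpr filter kept at least 98.8% of the counts of each zone library and 99.6% of each captured library. Libraries were scaled with TMM (factors 0.926 to 1.07 and 0.753 to 1.23), glmQLFit was run with group as the single term over all groups of the table, and glmQLFTest on 5 comparisons. P-values were adjusted by Benjamini-Hochberg over all tested genes of a comparison, with a threshold of 0.05. The SE is the log2 fold change over the square root of F. The QC area against other regions, and ground tissue against steles, chose the genes and were not tested. Alternatives were DESeq2 1.42.0, library totals, no filter, only the groups compared, a minimum 2-fold change, a replicate block, lane as a term, lane 7 alone and leaving out each library. No replicates agreed within sampling noise, as chi-square per gene between 2 replicates was at least 1.90 in the zones and 5.61 in the captured regions. The choice of genes was tried on made-up means. The fits were tried on simulated counts for zone 2 against zone 1 and stele 2 against stele 1 only. Outcomes of these trials are not given here.

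The genes and lists were chosen with earlier results of these data known. Genes are named if ranked 1 to 4 by log2 of the ratio with 1 CPM added, if among the 2 highest captured means, if among the 2 largest rises or falls of a comparison past the threshold (at least 10 CPM over both groups, no overlap), if they share a scaffold with another chosen gene, or at a limit of the choice. Lists of functions and cell types fixed by product name could not be applied, since the files pair no ID with a name, and no sequence was used.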

Additional observations from a re-analysis of the deposited data

Results flagged for a closer look

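In 11 of 135 groups of libraries, formed by the 9 groups and 15 measures, which were the levels of 13 named genes and the median and summed level of the chosen genes, 1 library lay apart from the others by Dixon's criterion at 95%. Chance would give about 1 in 20 such groups only if the values were normally distributed and the groups independent, which was not tested. A gene counted in only 1 library of a group always meets the criterion, as MA_483593g0010, MA_9438531g0010 and MA_106343g0010 did in the QC area. The 11 groups are therefore listed for a closer look and are not judged against that rate.

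In the QC area 5 genes had 1 library above the other 3. MA_483593g0010 had 2.17 CPM in replicate 2 and 0 in the others, and MA_8606496g0010 had 1.37 CPM in replicate 2 against 0 to 0.219. MA_18616g0010 had 3.08 CPM in replicate 2 against 1.09 to 1.39, MA_9438531g0010 had 1.64 CPM in replicate 4 against 0, and MA_106343g0010 had 0.428 CPM in replicate 3 against 0.

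Stele 1 replicate 1 lay apart for the 3 genes with the most captured counts. It held 1819 CPM of MA_10427724g0050 against 178 to 416 in the other stele 1 libraries, 384 CPM of MA_10427724g0030 against 37.4 to 86.5, and 919 CPM of MA_9835458g0010 against 92.2 to 212. Over the captured libraries the count of MA_10427724g0050 over that of MA_10427724g0030 stayed between 4.03 and 5.64, so these are not 3 separate observations.

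MA_106343g0010 had 36.0 CPM in ground tissue replicate 1 against 13.7 to 16.9 in the other 3. In the zones, MA_18616g0010 had 132 CPM in zone 3 replicate 2 against 65.9 to 82.9, and MA_10427724g0050 had 0.987 CPM in zone 3 replicate 1 against 0 to 0.235.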

How the results depend on the processing

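Under the alternatives run, no fold change of a named gene changed sign, but the balance of higher and lower chosen genes in stele 3 against stele 2 did. Requiring a 2-fold change called 6982 genes in zone 2 and 12986 in zone 3 against zone 1 over the table. With it 2 chosen genes were lower in zone 3 and 13 in zone 4, where the count over the table is not given here. With only the compared groups in the fit, 2634 genes were called in stele 2 against stele 1 and 1011 in stele 3 against stele 2, where 7 chosen genes rose and 1 fell. For stele 3 against stele 2, 1 chosen gene rose and 8 fell with library totals. In DESeq2 6 rose and 6 fell, and 2 rose and 3 fell with lane as a term. Of all tested genes, 16.4%, 19.3% and 12.8% were called in either direction at these 3 settings. Within lane 7 stele 3 against stele 2 called 248 genes, with 2 chosen genes higher and 0 lower. There stele 2 against stele 1 called 653 genes, with 36 chosen genes higher. Fewer libraries were left within lane 7, and what part lane or the number of libraries had in these losses was not tested.

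Leaving out 1 library at a time gave 0 to 1 chosen genes lower in zone 2 and 55 to 75 higher in stele 2. In stele 3 it gave 0 to 1 higher and 1 to 6 lower. Over the table it called 3727 to 6619 genes in stele 2 against stele 1. The range was 2407 to 4634 in stele 3 against stele 2 and 14376 to 15656 in zone 2 against zone 1. The cause of the changes was not tested for any setting. Counts of genes stayed within 1.5 times in 167 cases with 1 library left out and moved further in 11, against 91 and 17 cases with other settings, and calls of single genes stayed in 213 and 142 cases and were lost in 13 and 7.

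The replicate numbers were not used as pairs in the main fit. In no comparison were all correlations of same-numbered deviations above 0.1, which does not show that pairing was absent. They ran from -0.091 to 0.196 in the steles and from -0.054 to 0.185 in the zones. With a replicate block, 90, 86 and 65 chosen genes were higher in zones 2, 3 and 4 and 73 in stele 2, and 4 were lower in stele 3. Own numbers correlated best for 3, 4 and 0 of 5 libraries in the zones and for 2 of 4 in each stele comparison.

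The choice of genes depended on the libraries. Leaving out 1 library gave 87 to 118 genes and kept 81 to 100 of the 100. TMM-scaled totals gave 103 genes and kept 87, group medians 97 and 80, and lane 8 alone 106 and 68. Depth limits what can be said of QC area levels near the floor of 0.349 CPM.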

Other observations

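Genes beside the chosen ones on the same scaffolds, looked at after their values were seen, differed between the tables in more than 1 way. MA_130615g0010, listed next to the chosen MA_130615g0020, averaged 0.029 CPM in the QC area, 1.58 CPM in ground tissue, 2.34 CPM in stele 1, 13.1 CPM in stele 2 and 10.9 CPM in stele 3. In the zones it averaged 0 CPM in zones 1, 3 and 4 and 0.072 CPM in zone 2, while MA_130615g0020 was well above this in every zone library. MA_10427724g0050 has the same arrangement, high in the captured table and near 0 in the zones.

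MA_10427724g0020, on the scaffold of MA_10427724g0030 and MA_10427724g0050, was found in both tables. It averaged 0.056 CPM in the QC area, 0.534 CPM in ground tissue, 0.788 CPM in stele 1, 14.9 CPM in stele 2 and 18.2 CPM in stele 3, and 8.05, 90.2, 124.5 and 45.2 CPM in zones 1 to 4. It was not among the chosen genes because its ground tissue and stele 1 means were under 5 CPM.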
